A study of Homo sapiens with 9 samples.

Results

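The 10 genes described here are the usual markers and regulators of the epithelial and mesenchymal states, CDH1, CDH2, VIM, EPCAM, ZEB1, ZEB2, SNAI1, SNAI2, TWIST1 and ESRP1. They were chosen by name, and each matched 1 Ensembl gene among the 60664 genes of the count table. Of the 10 genes, 8 passed the filter on low counts, as did 17207 genes in all. SNAI2 and TWIST1 did not pass.

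The cells were Huh-7, an established human hepatocellular carcinoma line, and the study asked what the loss of single vault RNAs, short non-coding RNAs, does to them. WT cells carried both genes of interest, 1-1 KO cells lacked vtRNA1-1 and 1-2 KO cells lacked vtRNA1-2, which had been removed from the WT cells with CRISPR/Cas9. All 3 lines were grown untreated in serum-containing medium to the same confluency and were sequenced as 3 mRNA libraries each. The 1-2 KO line grew from a single cell, the WT and 1-1 KO cells came from another laboratory, and each knockout is 1 line, so that the effect of a deletion and the difference between lines cannot be told apart.

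An epithelial cell adheres to its neighbours through E-cadherin (CDH1) and EpCAM, whereas a mesenchymal cell typically carries N-cadherin (CDH2) and vimentin filaments (VIM). In the epithelial-mesenchymal transition (EMT), repressors of the ZEB, SNAIL and TWIST families bind E-box motifs in epithelial promoters and lower CDH1 transcription, and ESRP1 and ESRP2, epithelial splicing factors, are lost. ZEB1 and ZEB2 mRNAs are in turn targets of the miR-200 family of miRNAs. Carcinoma cells often hold intermediate states in which both groups of markers are present.

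The libraries held between 32384469 and 41782387 counts. Levels are given as CPM, the count of a gene scaled to 1000000 counts of the TMM-scaled library, with the mean ± SD over the libraries of a line (n = 3). All tests are quasi-likelihood tests in edgeR, adjusted by the Benjamini-Hochberg method over 17207 genes. The study describes the libraries of a line as biological replicates. The labels do not say whether they came from separate cultures, and the p-values measure the spread between these libraries. Of the 1-2 KO libraries, replicate 1 stood apart, with a root mean square deviation of 0.108 from its line's mean on the log2 scale, against 0.0651 and 0.0676 for the other two. In WT the deviations were 0.0779, 0.0574 and 0.0932 for replicates 1, 2 and 3. VTRNA1-2 had 0 counts in every library and VTRNA1-1 only 1 count in all, in a WT library, so that these mRNA libraries do not check the deletions. In bulk RNA, fewer cells of a kind and less RNA per cell cannot be told apart.

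Of the 10 genes, 7 differed between 1-1 KO and WT at an adjusted p under 0.05. Among all tested genes 63.4% did so, and the count has to be read against this share. In 1-1 KO, 4 of the genes were higher (CDH1, CDH2, EPCAM and ESRP1) and 3 were lower (VIM, ZEB1 and ZEB2), against 32.5% higher and 30.9% lower among all tested genes. Between 1-2 KO and WT, 5 of the genes differed, against 54.4% of all tested genes. There, CDH2, ZEB2 and ESRP1 were higher and CDH1 and VIM were lower, while 28.2% of all tested genes were higher and 26.2% lower. The ESRP1 call in 1-2 KO rests on 3, 2 and 5 counts against 0 in each WT library. ESRP1 passed the filter on low counts only through 1-1 KO, the line in which it was high, and was not tested in a fit of 1-2 KO and WT alone. Both comparisons use the same WT libraries.

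CDH1 encodes E-cadherin, the adhesion molecule of epithelial junctions (ENSG00000039068, chromosome 16, 68737292 to 68835537, plus strand, GRCh38 as for all positions here). Its level was 96.8, 99.5 and 102 CPM in the WT libraries, 138, 140 and 137 CPM in 1-1 KO and 36.2, 35.0 and 35.6 CPM in 1-2 KO. The libraries of the 3 lines did not overlap, and 1-2 KO was the low line. CDH1 rose in 1-1 KO by a log2 fold change of 0.48 (SE 0.0329, edgeR, adjusted p = 1.7e-08) and fell in 1-2 KO by 1.48 on the log2 scale (SE 0.0351, edgeR, adjusted p = 4.5e-13). Between the knockouts, 1-2 KO was 3.89-fold lower than 1-1 KO (edgeR, adjusted p = 1.3e-14).

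EPCAM encodes an epithelial surface adhesion glycoprotein that is also a marker of hepatic progenitors (ENSG00000119888, chromosome 2, 47345158 to 47387601, plus strand). It stood at 36.0, 35.7 and 34.7 CPM in WT, at 104.5, 102.8 and 103.8 CPM in 1-1 KO and at 34.2, 34.2 and 35.8 CPM in 1-2 KO. Every 1-1 KO library lay far above the others, and the WT and 1-2 KO libraries overlapped. EPCAM was 2.92-fold higher in 1-1 KO than in WT (log2 fold change 1.55, SE 0.0373, edgeR, adjusted p = 5.1e-13). In 1-2 KO the log2 difference from WT was -0.03, with a 95% interval from -0.11 to 0.05 (edgeR, adjusted p = 0.51), so that in 1-2 KO the fall of CDH1 stood beside an EPCAM difference that did not pass the test. A scaling by library size alone turned the sign of this small EPCAM difference, to 0.02.

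CDH2 encodes N-cadherin, which is the mesenchymal counterpart of E-cadherin and is also present on hepatocytes (ENSG00000170558, chromosome 18, 27932879 to 28177946, minus strand). It was abundant in all 3 lines, at 162, 157 and 158 CPM in WT, 187, 192 and 191 CPM in 1-1 KO and 168, 185 and 181 CPM in 1-2 KO. The WT libraries were the lowest, and the 2 knockouts did not overlap each other by a narrow margin. CDH2 rose in 1-1 KO (log2 fold change 0.26, SE 0.0383, edgeR, adjusted p = 4e-05) and in 1-2 KO (0.17, SE 0.0384, edgeR, adjusted p = 0.0022). The difference between the knockouts was -0.09 (edgeR, adjusted p = 0.045), and without the 1-2 KO library that stood apart it was -0.05 (edgeR, adjusted p = 0.17, with a range of 0.0094 to 0.17 when each library was left out in turn). CDH2 therefore did not mirror CDH1: in 1-1 KO both cadherins were higher than in WT, and in 1-2 KO CDH2 was higher and CDH1 lower.

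VIM encodes vimentin, the intermediate filament protein of mesenchymal cells (ENSG00000026025, chromosome 10, 17228241 to 17237593, plus strand). It had the most counts of the 10 genes, with 844, 845 and 868 CPM in WT, 452, 452 and 456 CPM in 1-1 KO and 626, 617 and 624 CPM in 1-2 KO. The lines did not overlap, and both knockouts were below WT. VIM fell in 1-1 KO by 0.91 on the log2 scale (SE 0.0311, edgeR, adjusted p = 1.4e-11), which is 1.88-fold, and in 1-2 KO by 0.45 (SE 0.0309, edgeR, adjusted p = 2e-08), which is 1.37-fold. In 1-2 KO the mesenchymal marker VIM and the epithelial marker CDH1 were thus both lower than in WT.

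Among the repressors, ZEB1, a zinc-finger and homeodomain factor that binds E-boxes, was the most abundant (ENSG00000148516, chromosome 10, 31318495 to 31529814, plus strand). Its level was 41.3, 41.9 and 40.8 CPM in WT, 27.7, 28.3 and 29.5 CPM in 1-1 KO and 38.8, 42.6 and 38.5 CPM in 1-2 KO. The 1-1 KO libraries lay below all others, and those of WT and 1-2 KO overlapped. ZEB1 fell in 1-1 KO by 0.54 on the log2 scale (SE 0.0495, edgeR, adjusted p = 3.5e-07). In 1-2 KO the difference from WT was -0.05, with a 95% interval from -0.15 to 0.06 (edgeR, adjusted p = 0.42), and its sign turned with a scaling by library size alone, to 0.01.

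ZEB2, the paralog of ZEB1, was far less abundant and moved in opposite directions in the knockouts (ENSG00000169554, chromosome 2, 144364364 to 144521057, minus strand). It stood at 3.24, 2.45 and 2.88 CPM in WT, at 1.63, 1.60 and 1.52 CPM in 1-1 KO and at 6.65, 8.94 and 8.09 CPM in 1-2 KO, from 62 to 356 counts per library. The 3 lines did not overlap. ZEB2 fell in 1-1 KO by 0.85 on the log2 scale (SE 0.153, edgeR, adjusted p = 0.00023) and rose in 1-2 KO by a log2 fold change of 1.46 (SE 0.129, edgeR, adjusted p = 3.2e-07), which is 2.76-fold. Between the knockouts it was 4.98-fold higher in 1-2 KO (edgeR, adjusted p = 2.8e-09). Its order over the lines was the reverse of that of CDH1, highest where CDH1 was lowest, and with 3 lines this is a description only.

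SNAI1 encodes SNAIL, a zinc-finger repressor of CDH1 (ENSG00000124216, chromosome 20, 49982980 to 49988886, plus strand). It was present at a low level in all libraries, at 6.48, 6.19 and 7.07 CPM in WT, 6.97, 6.10 and 5.15 CPM in 1-1 KO and 6.62, 6.35 and 7.04 CPM in 1-2 KO. All lines overlapped. The log2 difference from WT was -0.11 in 1-1 KO (95% interval -0.34 to 0.12, edgeR, adjusted p = 0.38) and 0.02 in 1-2 KO (95% interval -0.21 to 0.25, edgeR, adjusted p = 0.88), and the sign in 1-2 KO turned when WT replicate 2 or 1-2 KO replicate 3 was left out.

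SNAI2, which encodes the related repressor SLUG (ENSG00000019549, chromosome 8, 48917598 to 48921740, minus strand), had 2, 1 and 0 counts in WT, 0 counts in each 1-1 KO library and 1, 1 and 0 counts in 1-2 KO. TWIST1, a basic helix-loop-helix factor (ENSG00000122691, chromosome 7, 19020991 to 19117636, minus strand), had 0 counts in every WT and 1-1 KO library and 1, 0 and 2 counts in 1-2 KO. The floor of a line was set at 3 counts in each of its libraries, which on average is 0.0835 CPM in WT, 0.0725 CPM in 1-1 KO and 0.0738 CPM in 1-2 KO and covers counting error only. Both genes were at the floor in all 3 lines, and a difference between lines was not detectable at this depth.

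ESRP1, an epithelial splicing factor (ENSG00000104413, chromosome 8, 94641074 to 94707466, plus strand), had 0 counts in every WT library, 77, 97 and 100 counts in 1-1 KO and 3, 2 and 5 counts in 1-2 KO. The 1-1 KO libraries stood apart from all others, at 1.82, 2.36 and 2.45 CPM. ESRP1 was at least 26.5-fold higher in 1-1 KO than in WT, computed against 3 counts in each WT library (edgeR, adjusted p = 1.8e-08). In 1-2 KO, the 10 counts over 3 libraries against 0 in WT passed the test (edgeR, adjusted p = 0.0058), but the mean of 0.0821 CPM is not above the WT floor and no fold is given. It passed the filter on low counts through the line in which it was high. The counts in 1-1 KO were 26.9-fold those in 1-2 KO after scaling, with an exact interval for counting error from 14.4 to 56.8.

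**Figure D1:**
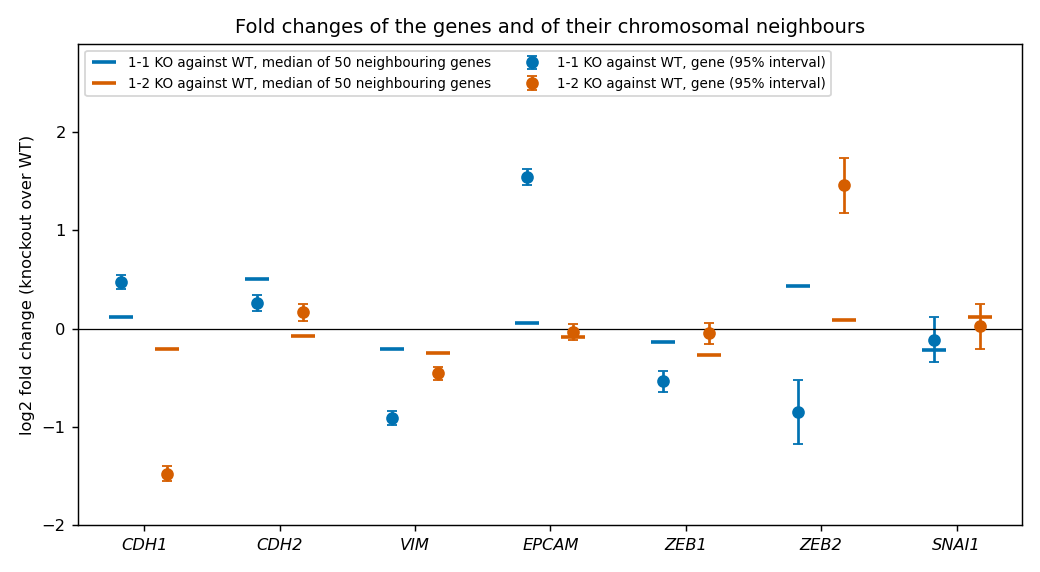
Log2 fold change (vertical axis) of 7 genes in 1-1 KO and in 1-2 KO compared to WT, as points with 95% intervals from edgeR. Horizontal dashes mark the median log2 fold change of the 50 nearest tested genes on the same chromosome. ESRP1, which has no counts in WT, and the untested SNAI2 and TWIST1 are not drawn. CDH1 and ZEB2 in both knockouts and VIM, EPCAM and ZEB1 in 1-1 KO lay furthest from their neighbours. In 1-2 KO the difference was smaller for VIM (-0.21), ZEB1 (0.22) and CDH2 (0.24). CDH2 in 1-1 KO lay below the dash of its neighbours.

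Each gene was set beside the 50 tested genes nearest to it on its chromosome, since the median of neighbouring genes was often not 0 in these lines. Around CDH1 the log2 fold changes had a median of 0.12 in 1-1 KO and of -0.21 in 1-2 KO, so that CDH1 differed from its neighbours by 0.36 and -1.27. Around EPCAM the median was 0.06 in 1-1 KO, which leaves 1.49 for EPCAM. Around ZEB2 it was 0.43 in 1-1 KO and 0.09 in 1-2 KO, which leaves -1.28 and 1.38. VIM differed from its neighbours by -0.71 in 1-1 KO and by -0.21 in 1-2 KO, where the neighbours stood at -0.25. ZEB1 differed from its neighbours by -0.40 in 1-1 KO and by 0.22 in 1-2 KO. For CDH2 the neighbours in 1-1 KO were higher than the gene itself, with a median of 0.51, and the difference turned to -0.25 when that median was subtracted. In 1-2 KO the neighbours of CDH2 stood at -0.07 and CDH2 at 0.24 above them. The part of such regional shifts in the values of the 10 genes was not tested.

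Read counts of different genes were compared per kilobase of annotated exon. On this scale of CPM per exonic kb, the order in WT was VIM at 165 ± 2.65, CDH2 at 18.5 ± 0.291, CDH1 at 16.3 ± 0.397, EPCAM at 14.6 ± 0.295, ZEB1 at 4.78 ± 0.0601, SNAI1 at 3.86 ± 0.264 and ZEB2 at 0.109 ± 0.0151, with SNAI2, TWIST1 and ESRP1 at the floor. No neighbours among the first 7 overlapped in their libraries. In 1-1 KO, EPCAM stood second at 42.7 ± 0.358, above CDH1 at 22.8 ± 0.235 and CDH2 at 22.1 ± 0.279, and SNAI1 (3.56 ± 0.535) and ZEB1 (3.29 ± 0.106) overlapped. In 1-2 KO, CDH1 dropped to the fourth place at 5.86 ± 0.0987, just above ZEB1 at 4.62 ± 0.262. On the length of the canonical transcript of each gene, chosen after seeing the data, EPCAM stood above CDH1 in WT (22.9 ± 0.464 against 20.6 ± 0.502 CPM per kb), CDH2 stood above CDH1 in 1-1 KO (47.3 ± 0.596 against 28.8 ± 0.297), and ZEB1 stood above SNAI1 in 1-1 KO (4.80 ± 0.154 against 3.56 ± 0.535). On the canonical length CDH1 had rank 4 in all 3 lines, so that its change of place in 1-2 KO held on the exonic length only. VIM was first and ZEB2 was below SNAI1 on both lengths in all 3 lines.

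**Figure D2:**
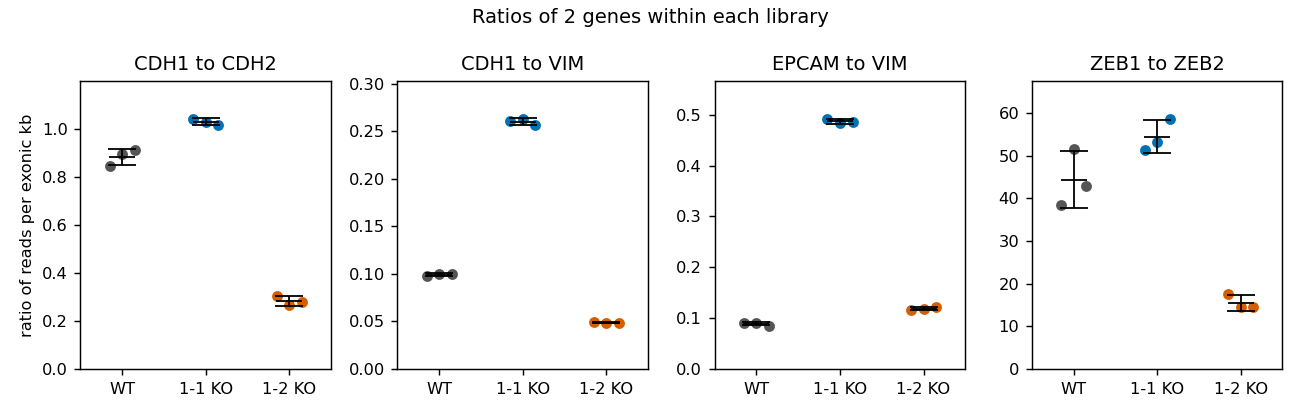
Ratio of the reads per exonic kb of 2 genes within the same library (vertical axes, linear, each with its own range), in the 3 libraries of each line. Points are libraries, and bars are the mean ± SD. The ratios of CDH1 to CDH2 and of CDH1 to VIM were highest in 1-1 KO and lowest in 1-2 KO, and the ratio of EPCAM to VIM was highest in 1-1 KO.

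Ratios within a library do not depend on the scaling between libraries. The ratio of CDH1 to CDH2 in reads per exonic kb was 0.884 ± 0.0333 in WT, 1.03 ± 0.0135 in 1-1 KO and 0.283 ± 0.0191 in 1-2 KO. That of CDH1 to VIM was 0.0992 ± 0.00132 in WT, 0.260 ± 0.00365 in 1-1 KO and 0.0487 ± 0.000487 in 1-2 KO. In both ratios the libraries of the 3 lines were separate, in the order 1-1 KO, WT and 1-2 KO. The ratio of EPCAM to VIM was 0.0887 ± 0.00319 in WT, 0.487 ± 0.00469 in 1-1 KO and 0.119 ± 0.00306 in 1-2 KO, so that by this ratio 1-2 KO lay above WT, not below it. The ratio of ZEB1 to ZEB2 was 44.3 ± 6.68 in WT, 54.4 ± 3.79 in 1-1 KO and 15.5 ± 1.87 in 1-2 KO, and between WT and 1-1 KO the libraries overlapped for this ratio at 51.6 and 51.4. The lengths used set the size of a ratio but not its order over the lines.

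Genes annotated over the 10 genes were looked up, since the sources used here do not state whether counting used the strand. VIM-AS1, antisense to VIM, had between 14 and 36 counts per library, and ZEB1-AS1, antisense to ZEB1, had between 59 and 100. Over CDH1 the processed pseudogene FTLP14 had between 3 and 12 counts. ZEB2-AS1 had at most 1 count. The remaining overlapping genes had at most 6 counts in any library. These counts were small beside those of VIM and CDH1, and ZEB1 itself had between 1163 and 1695 counts per library.

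The promoters of these genes are shown where the E-box can be read directly. RefSeq promoter windows (GRCh38.p14, 250 bases before to 50 after a start) matched 4 of the 10 genes, with 7 windows for ZEB1, 2 for CDH2 and 1 each for VIM and ZEB2. CAGGTG, which reads CACCTG on the other strand and is the E-box form bound by ZEB and SNAIL proteins, was searched on both strands. It was present in 2 of the 7 ZEB1 windows and in none of those of CDH2, VIM and ZEB2, while 20.6% of all 35116 windows held it. The wider CANNTG, which includes CAGGTG, was in 4 ZEB1 windows, 1 CDH2 window, the ZEB2 window and not in that of VIM, and in 68.7% of all windows. The ZEB1 window with the most copies of CAGGTG or CACCTG had 3 and is printed with them in capitals, as the promoter of a gene that fell in 1-1 KO (chr10:31318966-31319265, plus strand).
ZEB1 promoter window: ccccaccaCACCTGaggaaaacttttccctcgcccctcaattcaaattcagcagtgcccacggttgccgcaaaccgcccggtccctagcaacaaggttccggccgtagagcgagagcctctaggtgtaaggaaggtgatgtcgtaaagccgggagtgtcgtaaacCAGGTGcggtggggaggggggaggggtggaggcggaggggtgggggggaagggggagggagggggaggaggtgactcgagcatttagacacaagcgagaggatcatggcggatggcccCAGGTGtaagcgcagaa

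The mature miRNAs of the miR-200 family are shown because ZEB1 and ZEB2 mRNAs are their best known targets. They are not measured by mRNA libraries, and the sequences are from RefSeq (GRCh38.p14) with the seed, bases 2 to 8, in capitals. The first group shares the seed AAUACUG and the second AACACUG, which differ from each other.
hsa-miR-200b-3p: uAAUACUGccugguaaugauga
hsa-miR-200c-3p: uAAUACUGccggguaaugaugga
hsa-miR-429: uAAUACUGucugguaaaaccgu
hsa-miR-200a-3p: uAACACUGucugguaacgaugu
hsa-miR-141-3p: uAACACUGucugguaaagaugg
The 7 listed loci of miR-200 and miR-205 precursors and host genes were all at the floor in all 3 lines, with a summed level of at most 0.0709 CPM in any library. No gene of this list was tested, and a change of these precursors was not detectable at this depth.

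The remaining lists hold genes from the same biology, and for each the count of tested genes called in each direction is set beside the percentage given above for all tested genes. Over all tested genes the log2 fold changes from WT had a median of 0.01 for 1-1 KO and of 0.02 for 1-2 KO, and those between the knockouts one of 0.01.

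Of 35 epithelial surface and junction genes, 31 were tested. In 1-1 KO 24 were higher and 5 lower, with a median log2 fold change of 0.63. Of the tested genes, 3 were at the floor in either WT or 1-1 KO, and the median was also 0.63 with these set to their bound. Such a gene can pass the filter on low counts through the line in which it is high. MAL2, an apical sorting protein, rose from 95.1 ± 2.00 to 194 ± 3.70 CPM (edgeR, adjusted p = 7.6e-12), and DSG2, a desmosomal cadherin, rose from 75.4 to 171 CPM (edgeR, adjusted p = 6.9e-12). In 1-2 KO 9 were higher and 15 lower, with a median of 0.02, or -0.07 with genes at the floor set to their bound. There, AP1M2, an epithelial clathrin adaptor subunit, fell from 82.2 to 43.9 CPM (edgeR, adjusted p = 2.9e-10) and CD24, a surface glycoprotein, from 524 to 304 CPM (edgeR, adjusted p = 9.3e-10). Without the 1-2 KO library that stood apart, 6 were higher and 15 lower. Between the knockouts 25 of the 31 were lower in 1-2 KO than in 1-1 KO and 4 higher, with a median of -0.75, where 32.2% of all tested genes were lower and 33.1% higher. At an adjusted p under 0.05, 65.3% of all tested genes differed between the knockouts in either direction, and of the 10 genes 7 did, with VIM, ZEB1 and ZEB2 higher in 1-2 KO and CDH1, CDH2, EPCAM and ESRP1 lower.

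Of 16 intermediate filament and mesenchymal cytoskeleton genes, 14 were tested. In 1-1 KO 12 were lower and 0 higher, with a median of -0.87, the same direction as VIM, which is not in this list. At an unadjusted p under 0.05 edgeR also had 0 higher. DESeq2's Wald test, which tested 16 genes of the list, had 1 higher at its adjusted threshold, PRPH, with 8, 11 and 6 counts in 1-1 KO against 0, 0 and 1 in WT. TAGLN, which encodes transgelin, an actin-binding protein of smooth muscle, fell from 374, 347 and 365 CPM in the WT libraries to 10.00, 8.63 and 9.83 CPM in 1-1 KO (edgeR, adjusted p = 5.1e-16), and CNN1, calponin, fell from 28.4 to 3.11 CPM (edgeR, adjusted p = 3.9e-13). In 1-2 KO 6 were higher and 5 lower, with a median of 0.19. LGALS1, galectin-1, rose from 8.38 to 60.0 CPM (edgeR, adjusted p = 4e-13) while S100A6, a calcium-binding protein, fell from 121 to 23.1 CPM (edgeR, adjusted p = 3.2e-13). TAGLN rose in 1-2 KO to between 754 and 839 CPM, opposite to its fall in 1-1 KO.

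The mesenchymal matrix and surface genes, with 22 of 29 tested, moved in both directions. In 1-1 KO 10 were higher and 8 lower (median 0.23), and in 1-2 KO 12 were higher and 8 lower (median 0.20). COL6A1, a collagen VI chain, rose from 2.73 CPM in WT to 33.0 CPM in 1-1 KO (edgeR, adjusted p = 2.1e-12) and 28.9 CPM in 1-2 KO. VCAN, the proteoglycan versican, fell from 271 to 130 CPM in 1-1 KO and to 44.7 CPM in 1-2 KO (edgeR, adjusted p = 2.6e-15).

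Of 14 other EMT transcription factors, 10 were tested, of which 5 were higher and 2 lower in 1-1 KO (median 0.31) and 4 were higher and 2 lower in 1-2 KO (median 0.10). PRRX1, a homeobox factor of mesenchyme, rose from 2.19 CPM in WT to 22.8 CPM in 1-1 KO (edgeR, adjusted p = 1.2e-12) and 23.6 CPM in 1-2 KO (edgeR, adjusted p = 1.1e-12). It was thus higher in both knockouts whereas ZEB2 moved apart in them. SNAI3, the third SNAIL paralog, rose from 0.141 CPM to 0.654 CPM in 1-1 KO and 0.452 CPM in 1-2 KO, and ID2, a dominant-negative helix-loop-helix protein, from 75.0 CPM to 99.6 CPM and 108 CPM. SOX4 rose in 1-1 KO from 202 to 285 CPM and fell in 1-2 KO to 176 CPM, as CDH1 did. TCF3, an E-box-binding factor, rose in 1-1 KO from 62.9 to 95.6 CPM and stood at 56.2 CPM in 1-2 KO, where it did not pass the test. TCF4 fell in 1-1 KO from 22.8 to 20.1 CPM. ID1, another helix-loop-helix inhibitor, had 103, 121 and 173 CPM in the WT libraries and 233, 155 and 154 CPM in the 1-2 KO libraries, so that the lines overlapped. It was called higher (edgeR, adjusted p = 0.034), but not without replicate 1 of 1-2 KO, replicate 1 of WT or replicate 2 of WT, where the adjusted p was 0.18, 0.15 and 0.12. Without replicate 1 of 1-2 KO the list had 3 higher and 3 lower in that comparison. FOXC1 (1.25 CPM in WT, 1.21 in 1-1 KO and 1.09 in 1-2 KO) and ID3 (124, 121 and 152 CPM) did not pass the test in either knockout.

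The epithelial regulators, with 16 of 17 tested, had 9 higher and 2 lower in 1-1 KO (median 0.45) and 7 higher and 5 lower in 1-2 KO (median 0.03). KLF5, a zinc-finger factor of epithelia, rose from 50.1 to 85.2 CPM in 1-1 KO (edgeR, adjusted p = 6.5e-10) and fell to 44.5 CPM in 1-2 KO. ELF3, an epithelial ETS factor, rose from 33.1 CPM to 50.4 CPM in 1-1 KO and 50.3 CPM in 1-2 KO. ESRP2, the paralog of ESRP1, was chosen after its values were seen. Its mean of 34.3 ± 1.28 CPM in WT rose to 43.6 ± 2.83 CPM in 1-1 KO (edgeR, adjusted p = 9.1e-05) and fell to 26.8 ± 1.26 CPM in 1-2 KO (edgeR, adjusted p = 0.00011). WT cells thus had ESRP2 reads without ESRP1 reads.

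All 6 genes with exons known to be spliced by ESRP proteins were tested for their total level, which says nothing of the exons. In 1-1 KO 1 was higher and 4 lower (median -0.39, or -0.67 without FGFR2, which was not above the floor), and in 1-2 KO 3 were higher and 1 lower (median 0.09). CD44, a hyaluronan receptor, fell from 14.2 CPM in WT to 5.06 CPM in 1-1 KO and 6.79 CPM in 1-2 KO. ENAH, an actin regulator, fell from 518 to 285 CPM in 1-1 KO, as did ARHGEF11, a guanine nucleotide exchange factor, from 80.2 to 50.3 CPM, and CTNND1, which encodes the cadherin-binding p120 catenin, from 75.3 to 70.3 CPM. SCRIB, a polarity protein, rose from 69.6 CPM to 97.3 CPM in 1-1 KO and 103 CPM in 1-2 KO. FGFR2, whose alternative exons distinguish epithelial from mesenchymal receptors, had 0 counts in each WT library, 0, 0 and 4 counts in 1-1 KO and 486, 452 and 483 counts in 1-2 KO, at least 139-fold above 3 counts in each WT library (edgeR, adjusted p = 4.4e-10). FGFR2 passed the filter on low counts only through 1-2 KO, the line in which it was high.

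Among catenins and cadherin partners, with 12 of 15 tested, 5 were higher and 5 lower in 1-1 KO (median -0.02) and 3 were higher and 4 lower in 1-2 KO (median -0.03). VCL, vinculin, fell from 591 to 298 CPM in 1-1 KO (edgeR, adjusted p = 1.3e-10) and CTNND2, delta-catenin, rose from 13.3 CPM to 27.5 CPM in 1-1 KO and 34.9 CPM in 1-2 KO. AFDN, afadin, which links nectins to actin, fell in 1-2 KO from 285 to 217 CPM (edgeR, adjusted p = 5.1e-07).

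Of 20 other cadherins, 9 were tested, with 3 higher and 4 lower in 1-1 KO (median -1.18) and 2 higher and 2 lower in 1-2 KO (median -0.25). CDH6, kidney cadherin, rose in 1-1 KO from 64.9 to 89.6 CPM and fell in 1-2 KO to 52.6 CPM, the directions of CDH1. CDH17, liver-intestine cadherin, rose from 10.6 CPM to 103.7 CPM in 1-1 KO and 24.6 CPM in 1-2 KO, and CDH24 rose in 1-1 KO from 6.93 to 15.1 CPM. CDH4 fell in 1-1 KO from 3.92 to 1.13 CPM and in 1-2 KO to 2.74 CPM. CDH19 fell in 1-1 KO from 5.84 to 2.08 CPM, CDH8 from 0.475 to 0.208 CPM, and CDH7 from 0.3595 CPM to the floor, at least 4.96-fold. CDH10 rose in 1-2 KO from 0.135 to 5.77 CPM, and passed the filter on low counts only through 1-2 KO, the line in which it was high. CDH9, between 0.901 and 1.18 CPM in the line means, did not pass the test in either knockout.

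For each of the 7 genes that reached 1 CPM on average, the 2 genes of most similar pattern were taken from 13336 genes by the root mean square difference of log2 CPM over the 9 libraries, each gene centred on its own mean. For CDH1 they were TNFRSF11B (0.0802) and TGFB3 (0.0819), and for EPCAM they were CCSER1 (0.0643) and TSGA10 (0.0808). For CDH2 they were IK (0.0254) and FUBP3 (0.0284), and for VIM C1orf43 (0.0386) and CAPZB (0.0390). For ZEB1 the nearest was EIF2S3 (0.0327). For ZEB2 they were CNTNAP1 (0.118) and LGALS3BP (0.121), and for SNAI1 UBBP3 (0.0717), a processed pseudogene whose reads may belong to its parent gene, and ANKRD54 (0.0731). TGFB3, a ligand of the TGF-beta family, stood at 5.43 CPM in WT, 7.19 CPM in 1-1 KO and 1.71 CPM in 1-2 KO. With 3 lines, patterns of this kind rest on few independent values and are a description.

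Markers of the cell types a liver culture could hold were set beside these results. All 10 hepatocyte markers were above the floor in each line, with a summed level from 16209 to 17184 CPM in the WT libraries, 33072 to 34011 CPM in 1-1 KO and 22064 to 24158 CPM in 1-2 KO. In 1-1 KO all 10 were higher than in WT (median 0.56), and in 1-2 KO 4 were higher and 4 lower (median -0.02). ALB, albumin, rose from 2531.5 CPM in WT to 9427 CPM in 1-1 KO and 4739 CPM in 1-2 KO, AFP, alpha-fetoprotein, from 1759 CPM to 8167 CPM and 7419 CPM, AHSG, fetuin-A, from 363 CPM to 519 CPM and 625 CPM, and APOA1 from 333 CPM to 595 CPM and 369 CPM. TTR, FGA, FGB and TF rose in 1-1 KO and fell in 1-2 KO, with TTR, transthyretin, at 111 CPM in WT, 336 CPM in 1-1 KO and 71.6 CPM in 1-2 KO, while SERPINA1 and APOB rose in 1-1 KO and did not pass the test in 1-2 KO, where they stood at 859.9 and 5178 CPM against 841 and 5460.4 CPM in WT. The higher CDH1 and EPCAM of 1-1 KO thus stood beside higher hepatocyte markers, whose part in the result was not tested.

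The other marker lists were lower in sum than the hepatocyte markers but not empty. In CPM, the cholangiocyte markers summed to 345 to 385 in WT, 458 to 467 in 1-1 KO and 510 to 604 in 1-2 KO. In each line, 6 of 7 fibroblast and stellate cell markers had more than 3 counts in at least 1 library. The summed level of the 7 was between 169 and 180 CPM in WT, 224 and 234 CPM in 1-1 KO and 86.8 and 91.9 CPM in 1-2 KO, with LUM, lumican, as the largest part. DCN had a mean of at most 0.0662 CPM in any line, below the average floor of each line. LUM rose in 1-1 KO from 157 to 206 CPM and fell in 1-2 KO to 62.1 CPM, PDGFRB rose from 1.77 CPM to 5.45 and 6.53 CPM, COL3A1 rose in 1-2 KO from 2.15 to 3.83 CPM and COL1A1 from 11.4 to 13.3 CPM, and RGS5 did not pass the test. Of 7 endothelial markers, 4 were at the floor in each line and KDR and CLEC4G had no counts in any line. PECAM1 stood at 7.57 CPM in WT, at 6.67 CPM in 1-1 KO and at 0.839 CPM in 1-2 KO, a fall in 1-2 KO (edgeR, adjusted p = 5.1e-11), and STAB2 fell in 1-1 KO from 0.276 to 0.120 CPM. Of 7 leukocyte markers, 3 were at the floor in WT and 2 in each knockout. LYZ, lysozyme, stood at 113 CPM in WT, 102 CPM in 1-1 KO and 19.2 CPM in 1-2 KO, PTPRC at 0.153, 0.522 and 0.998 CPM, CD14 at 1.34, 2.86 and 1.78 CPM and ITGAM at 1.37, 0.250 and 1.72 CPM. Of 6 cholangiocyte markers, KRT19, a biliary keratin, rose from 213 CPM to 279 and 267 CPM. Its 1-2 KO libraries, at 335, 234 and 232 CPM, overlapped those of WT, at 208, 198 and 233 CPM. SPP1, osteopontin, rose from 65.2 CPM to 76.8 and 219 CPM, and CFTR in 1-1 KO from 2.09 to 4.36 CPM, while SOX9 rose in 1-1 KO from 79.1 to 102 CPM and fell in 1-2 KO to 55.5 CPM, and KRT7 fell from 0.377 CPM to the floor in 1-1 KO and 0.107 CPM in 1-2 KO. The part of these markers in the results for the 10 genes was not tested.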

How the data were processed

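From each of 3 Huh-7 lines (WT and the knockouts 1-1 KO and 1-2 KO), 3 stranded mRNA libraries were sequenced, with paired reads of 50 bases. The authors used STAR on GRCh38 for alignment and featureCounts for counting, and deposited raw counts per gene. Tool versions, the strand setting and the handling of multimapping reads are not given in the sources used here. Positions and exon lengths came from GENCODE 44. Of the identifiers, 201 had no entry there, with 0.0192% of the counts.

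Counts were tested with edgeR 4.0.16 in R 4.3.3 (filterByExpr with a minimum count of 10, TMM, quasi-likelihood test, all 9 libraries in 1 fit) for the 3 pairs of lines. Intervals are 95%. DESeq2 1.42.0 and the other alternatives are given in the closing section. The labels name no batch. The steps were tested on simulated data.

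The 10 genes and the 14 lists were chosen with earlier results of these data known. The text names every tested gene of a list in which at most 10 were tested, the 2 with the smallest adjusted p per knockout in longer lists, overlapping genes and the nearest patterns. Some genes that this rule selects are not reported here, though they remain in the counts.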

Additional observations from a re-analysis of the deposited data

How the results depend on the processing

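Of the 10 genes, 7, 5 and 7 were called for 1-1 KO against WT, for 1-2 KO against WT and for the contrast of the knockouts. With a log2 fold change of at least 1 as an added threshold, the counts were 2, 3 and 4. The share of all tested genes at this threshold, or at an adjusted p under 0.01, was not computed. These counts therefore cannot be read against a share. In 1-2 KO against WT the count of 3 includes ESRP1, whose level in 1-2 KO was not above the WT floor and for which no fold is given. Leaving out each library in turn gave 7 in the first comparison, 5 in the second and between 6 and 7 in the third. The other alternatives were DESeq2's size factors, library size alone, DESeq2's Wald test, no filter on low counts, a minimum of 10 counts per library, a fit without the third line, the replicate block and an adjusted p under 0.01, and they gave between 6 and 7, 4 and 5, and 6 and 7. Where 10 counts were required in every library, ESRP1 was not tested, and it was also not tested in the fit of 1-2 KO and WT alone.

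Between the knockouts, CDH2 lost its call under DESeq2's Wald test, without the filter, with the replicate block and at an adjusted p under 0.01. The call was also lost when any of 7 of the 9 libraries was left out. Over the fits with 1 library left out, the log2 difference ranged from -0.12 to -0.05. With the median of 50 neighbouring genes subtracted, CDH2 reversed from 0.26 to -0.25 in 1-1 KO against WT and from -0.09 to 0.27 between the knockouts. With library size alone, the uncalled differences of EPCAM and ZEB1 in 1-2 KO against WT reversed to 0.023 and 0.0064. That of SNAI1 ranged from -0.021 to 0.057 when libraries were left out. The causes were not tested. All other calls of the 8 tested genes kept their direction and their side of the adjusted p threshold under every alternative that gave a test. The added threshold of a log2 fold change of at least 1 is apart from this and lowered the counts to 2, 3 and 4.

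Of the list genes described as changed, some calls were lost when 1 library was left out, an alternative chosen after seeing the data (edgeR). In 1-1 KO against WT these were CTNND1 (any of 7 libraries, adjusted p between 0.051 and 0.16), STAB2 (5 libraries, 0.056 to 0.14), APOB (4 libraries, 0.064 to 0.086) and CDH8 (3 libraries, 0.065 to 0.13). In 1-2 KO against WT they were ID1 (3 libraries, 0.12 to 0.18), APOA1 (2 libraries, 0.086 to 0.11), KRT19 (2 libraries, 0.055 to 0.089) and SNAI3 (without replicate 3 of 1-2 KO, 0.062). Other calls were gained. Without replicate 3 of WT, ID3 passed the test as higher in 1-1 KO (adjusted p = 0.015) and in 1-2 KO (adjusted p = 0.00012). TCF3 passed as lower in 1-2 KO without replicate 1 of that line (adjusted p = 0.021) or of WT (adjusted p = 0.023). Calls in 1-2 KO against WT were also gained by APOB (edgeR, adjusted p = 0.026), ENAH (0.025), CDH19 (3 libraries, 0.038 to 0.049) and CDH7 (2 libraries, 0.018 to 0.04998). In 1-1 KO against WT, calls were gained by ID1 (edgeR, adjusted p = 0.018), CDH10 (0.011) and FGFR2 (2 libraries, 0.045 to 0.046).

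Same-numbered libraries did not deviate together: the correlations of their deviations from the line means ranged from -0.54 to 0.40, so that the numbers were not taken to pair the libraries. Libraries of different numbers could deviate together. For replicate 3 of WT the correlation was 0.67 with replicate 1 of 1-2 KO and -0.57 with replicate 2 of 1-2 KO. The cause was not tested. With the replicate block the counts were 7, 5 and 6. Depth limited SNAI2, TWIST1 and, in WT and 1-2 KO, ESRP1.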
